A study of Mus musculus with 6 samples.

Results

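Angiotensin system peptidases and receptors were followed in lung RNA of Carm1 knockout and wild-type mice. The 7 genes were the angiotensin precursor Agt, the converting enzyme Ace, the peptidases Enpep, Anpep and Mme, and the receptors Agtr1a and Agtr2. Every probe set whose platform gene symbol, or an older name of it, was 1 of these 7, among 18194 genes named on the array, was taken, which gave 9 probe sets of 45101 on the array, with 2 each for Ace and Mme and 1 for each of the others. The genes were chosen with the knockout to wild-type differences of these same arrays in view, so those differences are given here as values with intervals and without a test.

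The study hybridised total lung RNA to 6 Affymetrix Mouse Genome arrays, on which a probe set of short oligonucleotides gives 1 signal per transcript. The Carm1 knockout group had 3 arrays, labelled embryonic day 18.5, from mice without the arginine methyltransferase Carm1, a coactivator of nuclear receptors. The wild-type group had 3 arrays, which the design text also places at that day and the sample labels call neonatal. The labels name no allele, strain or number of animals, and whether the arrays of a genotype came from separate fetuses or litters is not stated, so every spread below is that between these arrays. At the Carm1 probe set the knockouts had signals of 395, 374 and 511, against 814, 678 and 865 in the wild types. All 3 knockouts lay below all 3 wild types, but the sources used here do not place the probe set against the deletion, which limits it as a check of the labels.

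Angiotensinogen, the product of Agt, is made mainly by the liver and is cut by renin to angiotensin I. ACE, an enzyme carried in the mature body on the luminal face of lung capillary endothelium, trims angiotensin I to angiotensin II and also breaks down bradykinin. Aminopeptidase A (Enpep) and aminopeptidase N (Anpep) shorten angiotensin II from its amino end in turn, and neprilysin (Mme) cuts angiotensin I inside the chain. Angiotensin II acts through the type 1 receptor, of which Agtr1a is the main rodent form, and through the type 2 receptor Agtr2, which is abundant in fetal mesenchyme and declines after birth.

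To show the start regions of the genes whose 2 groups of arrays lay apart most widely, 4 windows of the RefSeq table for mouse GRCm38.p6 are printed, each from 250 bases before to 50 bases after an annotated start. The table held 9 windows for 6 of the 7 genes. The first Ace window lies at chr11:105967698-105967997 on the plus strand and the second, at a start inside the gene, at chr11:105974939-105975238 on the plus strand. The Enpep window lies at chr3:129332700-129332999 and the Anpep window at chr7:79848161-79848460, both on the minus strand. Capitals mark matches, on either strand, to 3 motifs. The GC box, which the factor Sp1 binds, was searched as GGGCGG. The TATA box, which helps to place the start of transcription, was searched as TATAAA. The half-site of the glucocorticoid receptor, a steroid receptor active in the fetal lung, was searched as AGAACA.
Ace, first start: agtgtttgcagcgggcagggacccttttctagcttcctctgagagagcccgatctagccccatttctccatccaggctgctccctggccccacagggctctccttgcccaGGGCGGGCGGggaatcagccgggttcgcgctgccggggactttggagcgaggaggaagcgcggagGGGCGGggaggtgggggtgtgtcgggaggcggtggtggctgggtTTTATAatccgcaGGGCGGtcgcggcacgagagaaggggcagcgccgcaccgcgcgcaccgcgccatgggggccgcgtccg
Ace, start inside the gene: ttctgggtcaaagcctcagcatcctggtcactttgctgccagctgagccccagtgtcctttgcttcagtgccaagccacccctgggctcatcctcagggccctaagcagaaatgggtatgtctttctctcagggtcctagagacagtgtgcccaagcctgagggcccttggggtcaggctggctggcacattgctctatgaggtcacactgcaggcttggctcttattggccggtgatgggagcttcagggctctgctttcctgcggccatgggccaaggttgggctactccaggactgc
Enpep: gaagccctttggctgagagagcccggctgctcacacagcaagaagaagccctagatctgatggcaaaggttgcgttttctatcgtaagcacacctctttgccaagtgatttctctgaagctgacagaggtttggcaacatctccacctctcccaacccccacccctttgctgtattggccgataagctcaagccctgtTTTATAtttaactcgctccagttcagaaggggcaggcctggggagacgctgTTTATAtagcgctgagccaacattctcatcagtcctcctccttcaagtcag
Anpep: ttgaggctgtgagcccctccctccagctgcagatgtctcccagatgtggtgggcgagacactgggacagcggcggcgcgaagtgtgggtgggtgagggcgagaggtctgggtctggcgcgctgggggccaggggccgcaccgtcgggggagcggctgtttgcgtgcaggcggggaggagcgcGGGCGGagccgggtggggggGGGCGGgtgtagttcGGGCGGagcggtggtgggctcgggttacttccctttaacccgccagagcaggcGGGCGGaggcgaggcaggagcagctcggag

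The first Ace window held 4 GC boxes, 2 of which overlapped, and 1 TATA match beginning 31 bases before the start. The window at the start inside Ace held no match to any of the 3 motifs. Enpep had 2 TATA matches, beginning 52 bases and 1 base before the start, and no GC box. The TATA matches of Ace and Enpep were all on the other strand, read here as TTTATA. Anpep had 4 GC boxes, 1 of them after the start, and no TATA match. Whether any of these matches acts in lung was not tested. Of the 32851 windows in the table, 35.7% held a GC box, 13.6% a TATA match and 19.0% a half-site. The half-site letters were in none of the 9 windows of these genes, which says only that those letters are not there.

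Before the values, 3 differences between arrays have to be stated, because they bear on the values of the system. The summed signal of 8 liver genes, Alb and Afp among them, was 193280 on knockout replicate 1 and 135102 on wild type replicate 2, and lay between 274 and 17943 on the other 4 arrays. The summed signal of 10 skeletal muscle genes, a list written after the values were seen, was 73885 on knockout replicate 3 and between 613 and 6004 on the other 5, and 7 cartilage genes summed to 12654 on that array against at most 1451 elsewhere. Probe sets for bacterial control RNA stood at medians of 609 and 379 on 2 wild types, replicates 1 and 3. They stood at no more than 11.4 on each of the other 4 arrays. As no knockout array had this RNA, a difference in handling that goes with it cannot be fully told apart from genotype, at any probe set. Xist and the Y-linked Eif2s3y marked knockout replicate 2 and wild type replicate 3 as male. The surfactant gene Sftpc and the alveolar type I gene Ager, which define lung epithelium, were detected with high signals on all 6 arrays, between 45812 and 57628 for Sftpc and between 19072 and 43892 for Ager.

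Ace and Enpep were lower in knockout lung at every probe set, Anpep was higher, Agtr1a was slightly lower, Mme was close to the wild-type level, and Agt and Agtr2 each had 1 knockout array far from the other 2. All 9 probe sets passed the filter on low signal, with 27022 on the array passing it. At 4 probe sets, both of Ace and those of Enpep and Agtr1a, all 3 knockout arrays lay below all 3 wild types, as did 9.36% of the probe sets tested. At 1, that of Anpep, all 3 knockouts lay above, as did 10.7%. In either direction the groups were apart at 5 of 9 probe sets, beside 20.0% of all tested, and nothing is read from that count because the genes were picked on this contrast. By sign alone 7 of the 9 probe sets were below 0, as were 47.3% of all tested. The median log2 difference of the 9 probe sets was −0.16, beside 0.019 over all those tested, and −0.071 without knockout replicate 3. With limma and Benjamini-Hochberg adjustment 8 of the 27022 passed 0.05, or 0.0296%, and 0 of these belonged to the 7 genes. Of the 8, 7 were lower in knockouts (0.0259%) and 1 was higher (0.00370%).

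**Figure D1:**
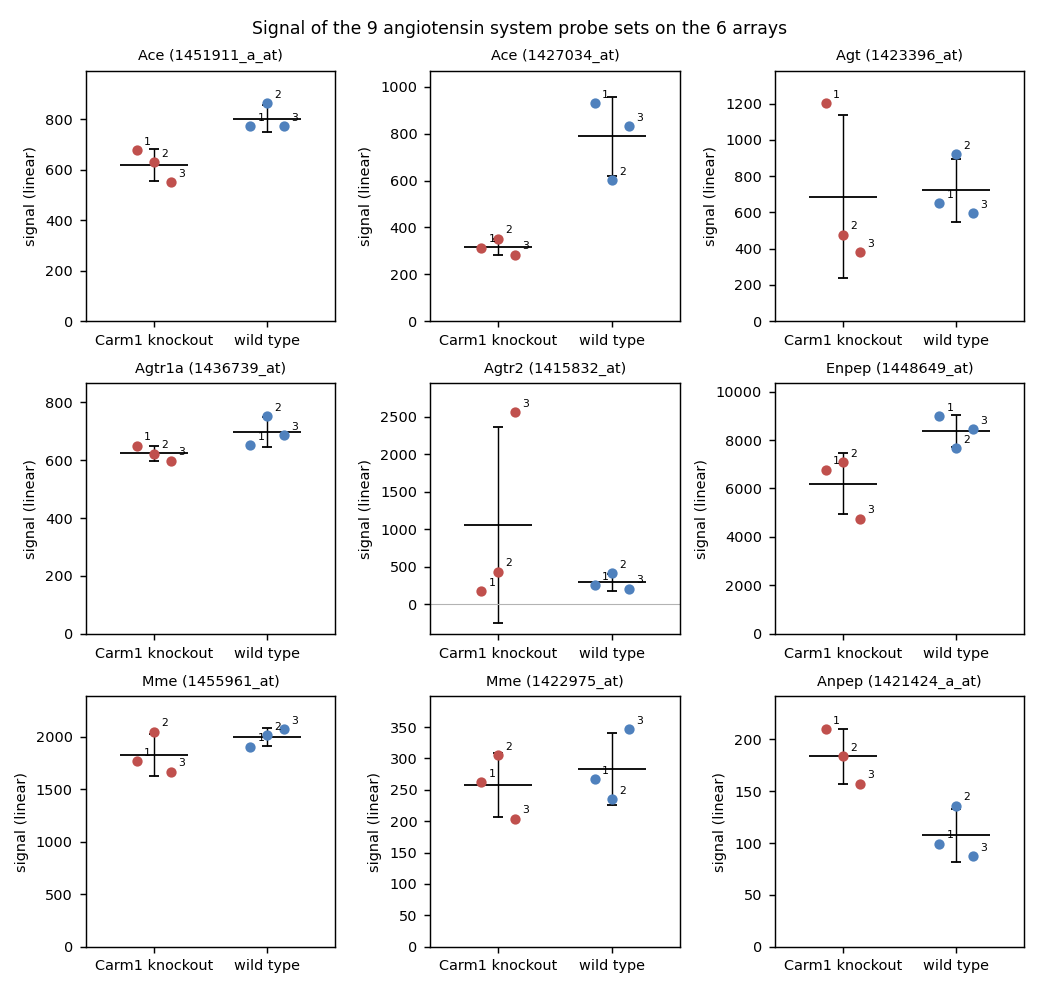
Signal (linear scale, arbitrary units) of the 9 probe sets on each array, Carm1 knockout left and wild type right. Points are arrays with their replicate number, the line is the mean of 3 arrays and the bar 1 SD. At Ace, Enpep and Agtr1a the knockout points lie below the wild-type points, at Anpep above, and knockout replicate 1 stands alone for Agt at 1202 and knockout replicate 3 for Agtr2 at 2557.

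Agt, the precursor of all angiotensins, had signals of 1202, 477 and 381 in knockouts 1 to 3, against 649.6, 920.5 and 596 in wild types 1 to 3. The groups overlapped fully, since knockout replicate 1 was the highest of all 6 arrays and the other 2 knockouts were the lowest. The means were 687 ± 449 in knockouts and 722 ± 174 in wild types (SD, n = 3 each), and the log2 difference was −0.23 (SE 0.38, 95% interval −1.10 to 0.63). Agt was highest on the same 2 arrays, knockout replicate 1 and wild type replicate 2, on which the liver genes were highest. All 8 liver genes had their highest signals on those arrays, for example Alb at 46294 on knockout replicate 1 and 39146 on wild type replicate 2, with at most 4446 on the other 4. On the other 4 arrays the order differed. Knockout replicate 3 had the next highest liver sum, 17943, and the lowest Agt. Wild type replicate 3 had the lowest liver sum, 274, with Agt at 596, above knockout replicate 2 at 477. Without the 2 arrays of highest liver signal Agt was at 477 and 381 in knockouts and at 649.6 and 596 in wild types, a log2 difference of −0.54. Without knockout replicate 3 it was 0.095. The part of liver RNA in the Agt signal was not tested. The spread of Agt within genotypes, 0.66 on the log2 scale, was wider than that of 94.3% of the tested probe sets.

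Ace encodes the converting enzyme and was read by 2 probe sets. At 1427034_at the signals were 314, 352 and 283 in knockouts 1 to 3, against 930.0, 602 and 833 in wild types 1 to 3. The highest knockout lay well below the lowest wild type. The means were 316 ± 34.5 in knockouts and 788 ± 168 in wild types, a ratio of knockout to wild type of 0.406 (95% interval 0.303 to 0.544), with a log2 difference of −1.30 (SE 0.19).

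At the second Ace probe set, 1451911_a_at, the signals were 676, 630.1 and 551 in knockouts, against 771, 863 and 772 in wild types. The groups again did not overlap, but the gap was narrow beside that at the first. The means were 619 ± 63.3 in knockouts and 802 ± 52.8 in wild types, a log2 difference of −0.38 (SE 0.13, 95% interval −0.67 to −0.086). Both probe sets thus ran in 1 direction and differed in size, with 95% intervals that did not meet. Which transcripts each reads relative to the 2 Ace starts shown above is not known here. Without knockout replicate 3, the array with muscle RNA, the differences were −1.22 and −0.30. Against wild type replicate 2 alone, the 1 wild type without bacterial control RNA, they were −0.94 and −0.48.

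Enpep encodes the aminopeptidase that opens the breakdown of angiotensin II and is known from vascular pericytes. Its signals were 6781, 7074 and 4761 in knockouts 1 to 3, against 8985, 7674 and 8438 in wild types 1 to 3. All 3 knockouts lay below all 3 wild types, and knockout replicate 3 was far below the other 2 knockouts. The means were 6205 ± 1259 in knockouts and 8366 ± 658 in wild types, and the log2 difference was −0.45 (SE 0.15, 95% interval −0.79 to −0.10). Without knockout replicate 3 the difference shrank to −0.27.

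Anpep, the aminopeptidase that acts next in the chain and is also carried by myeloid cells and fibroblasts, went the other way. Its signals were 210.1, 184 and 157 in knockouts 1 to 3, against 99.4, 136 and 87.4 in wild types 1 to 3. The lowest knockout lay above the highest wild type. The means were 184 ± 26.4 in knockouts and 108 ± 25.5 in wild types, or 1.73-fold, with a log2 difference of 0.79 (SE 0.26, 95% interval 0.20 to 1.38). It was 0.42 against wild type replicate 2 alone and 0.89 without knockout replicate 3.

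Mme, which encodes neprilysin, differed little. At 1455961_at the signals were 1766, 2049 and 1668 in knockouts 1 to 3, against 1907, 2017 and 2074 in wild types 1 to 3. Knockout replicate 2 lay inside the wild-type range and the other 2 knockouts below it. The log2 difference was −0.13 (SE 0.11, 95% interval −0.38 to 0.11). At 1422975_at the signals were 262, 305 and 204 in knockouts, against 267, 235 and 347 in wild types, with a log2 difference of −0.14 (SE 0.22, 95% interval −0.64 to 0.37). The groups overlapped, and this difference changed sign with the arrays used, to 0.018 without knockout replicate 3 and 0.11 against wild type replicate 2 alone. The intervals leave room for a difference of either sign at both Mme probe sets.

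Agtr1a, the type 1 receptor gene, had signals of 650.4, 623 and 598 in knockouts 1 to 3, against 651.2, 752 and 685 in wild types 1 to 3. The groups did not overlap, though the highest knockout and the lowest wild type were nearly equal. The means were 624 ± 26.4 in knockouts and 696 ± 51.3 in wild types, a log2 difference of −0.16 (SE 0.12, 95% interval −0.43 to 0.12). Agtr1a was the steadiest of the system, with a spread within genotypes of 0.086 on the log2 scale, and only 6.78% of the tested probe sets varied as little. The difference was −0.27 against wild type replicate 2 alone.

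Agtr2, the type 2 receptor gene on chromosome X, had signals of 172, 436 and 2557 in knockouts 1 to 3, against 254, 417 and 206 in wild types 1 to 3. Knockout replicate 1 was the lowest of all arrays and knockout replicate 3 was 5.86-fold above the next highest. The means were 1055 ± 1308 in knockouts and 293 ± 110.5 in wild types, and the log2 difference of 1.04 had a 95% interval from −0.78 to 2.87 (SE 0.80). Without knockout replicate 3 the difference was −0.030. The spread of Agtr2 within genotypes, 1.45 on the log2 scale, was wider than that of 99.2% of the tested probe sets.

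The array that set Agtr2 apart was also the one with skeletal muscle and cartilage transcripts. Only 23 of the 27022 tested probe sets, Agtr2 included, stood at least as far above the other 5 arrays on knockout replicate 3, and 0 did so on any wild-type array. Among the others were the fast muscle genes Myl1 at 20110 and Tnnc2 at 9947 and the cartilage collagen Col2a1 at 4537. All 10 skeletal muscle genes above the filter had their highest signal there, with Myl1 at 28.9 to 1209 on the other arrays. Their list, of 14 genes with 4 below the filter, was written after the values were seen. The filter also uses the mean that includes this array, so their peak there is a description and no independent support. Agtr2 and the muscle sum were also in similar order on the other arrays, with knockout replicate 2 and wild type replicate 2 above the other 3. The part of this tissue in the Agtr2 signal was not tested. In bulk RNA, fewer cells of a type and less RNA per cell cannot be told apart, here and for every gene described.

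**Figure D2:**
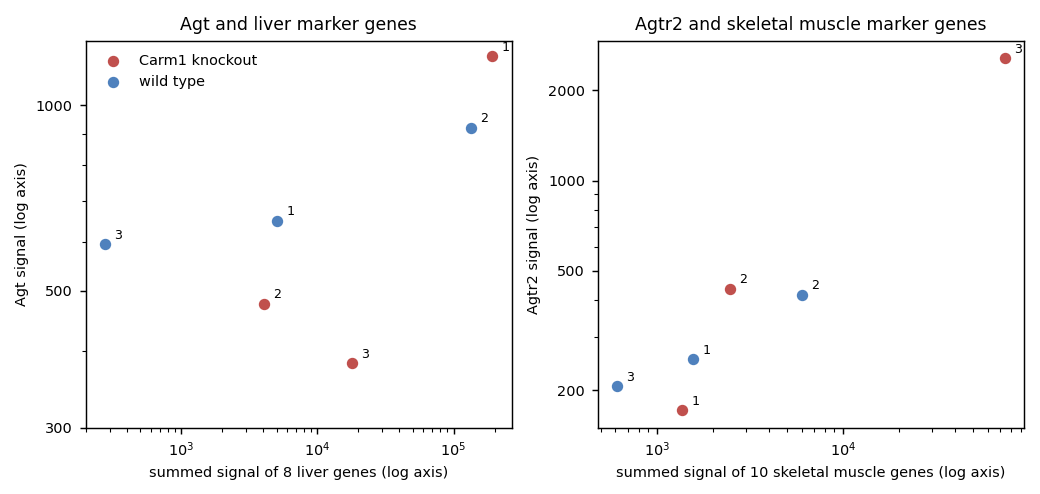
Agt signal against the summed signal of 8 liver genes (left) and Agtr2 signal against that of 10 skeletal muscle genes (right), all axes on a log scale, with 1 point per array labelled by replicate, Carm1 knockout in red and wild type in blue. Agt is highest on the 2 arrays with liver sums of 193280 and 135102, and Agtr2 on the array with a muscle sum of 73885.

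The other genes of the pathway were taken from lists by role. Of 32 listed genes 28 were named by a probe set with 1 symbol and 23 had one above the filter. With limma and Benjamini-Hochberg adjustment over all probe sets 0 of the 23 passed, and also 0 with the robust and the trend-free form of the test. At an unadjusted p under 0.05 there were 5, of which 4 were higher in knockouts and 1 lower, beside 13.6% of all tested probe sets. Their median log2 difference was 0.051, beside 0.019 over all probe sets tested. Sums over the 23 genes ran from 39826 to 43577 in knockouts and from 37290 to 40210 in wild types, which overlap. Their mean log2 deviation from the wild-type mean, to which Cpa3, Cma1 and the liver gene Kng1 contribute most, was 0.13 to 0.46 in knockouts and −0.067 to 0.088 in wild types, which do not.

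The 2 smallest p values belonged to mast cell peptidases that can process angiotensins. The carboxypeptidase gene Cpa3 had signals of 777, 2292 and 1454 in knockouts 1 to 3, against 221, 221 and 255 in wild types 1 to 3, a log2 difference of 2.57 (SE 0.33, limma adjusted p = 0.0796). The chymase gene Cma1, whose product can form angiotensin II without ACE, had 527, 1430 and 783 in knockouts, against 208, 214 and 226 in wild types, a log2 difference of 1.96 (SE 0.31, limma adjusted p = 0.0909). Neither passed the threshold, although all 3 knockouts lay above all 3 wild types at both genes. Without knockout replicate 1 both passed, with limma adjusted p of 0.00932 for Cpa3 and 0.0451 for Cma1. Over the alternatives run the adjusted p spanned 0.00142 to 0.488 for Cpa3 and 0.0149 to 0.542 for Cma1. Of 7 mast cell markers measured, which include Cpa3 and Cma1, 6 were higher and 1 lower, and Fcer1a was below the filter. The sums ran from 5435 to 9701 in knockouts and from 3945 to 4720 in wild types. They hold Cpa3 and Cma1 themselves, so they say nothing further about these 2 genes. Of the other markers, Tpsb2 differed by 2.27 on the log2 scale, Ms4a2 by 0.55, Kit by 0.23, Hdc by 0.12 and Gata2 by −0.33. The part of mast cell number in these values was not tested.

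Other genes near the top of the pathway differed by less. Aplnr, a receptor gene related in sequence to the type 1 receptor, had means of 12122 ± 826 in knockouts and 9067 ± 1667 in wild types (log2 0.43, limma adjusted p = 0.232). Prcp, a carboxypeptidase that removes the last residue of angiotensin II, had 1223 ± 40.1 in knockouts and 904 ± 183 in wild types (log2 0.45, limma adjusted p = 0.252). Hsd11b1, which regenerates active glucocorticoid, had 6386 ± 1140 in knockouts and 8268 ± 206 in wild types (log2 −0.39, limma adjusted p = 0.266), and Rnpep, aminopeptidase B, 641 ± 76.0 in knockouts and 774 ± 48.3 in wild types (log2 −0.28, limma adjusted p = 0.404). The (pro)renin receptor gene Atp6ap2 was at 6903, 6754 and 7099 in knockouts, against 6953, 6873 and 6801 in wild types, with a log2 difference of 0.0087 (95% interval −0.18 to 0.19). Agtr1b, the minor rodent type 1 receptor, was near the filter at 45.2 to 74.6 in knockouts and 61.9 to 70.3 in wild types. The Mas receptor gene Mas1, the aldosterone synthase gene Cyp11b2 and the kinin receptor gene Bdkrb1 were below the filter.

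**Figure D3:**
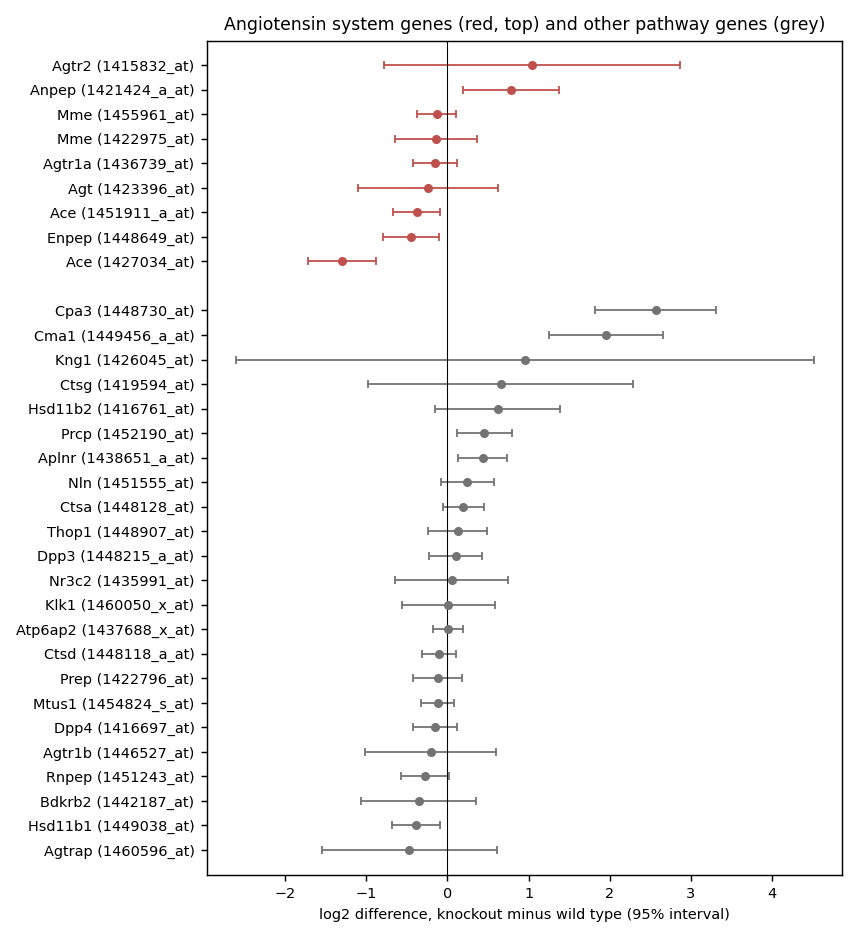
Log2 difference, knockout minus wild type, with its 95% interval from the limma fit, for the 9 angiotensin system probe sets (red, top) and for 23 other pathway genes at their brightest tested probe set (grey, below). Ace at −1.30 and Enpep at −0.45 have intervals below 0, Anpep at 0.79 above 0, and Cpa3 and Cma1 at 2.57 and 1.96 lie furthest to the right.

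Relatives of the peptidases were followed to see whether the differences ran through the enzyme families. Of 14 listed surface metallopeptidase genes 7 were above the filter, 4 higher and 3 lower in knockouts, with a median log2 difference of 0.026. None passed with limma, and 1 of the 7 had an unadjusted p under 0.05, a share near the 13.6% of all tested probe sets. That 1 was Ece2, an endothelin-converting enzyme of the neprilysin family, at 450, 465 and 568 in knockouts, against 404, 382 and 351 in wild types (log2 0.38, limma adjusted p = 0.327). A second Ece2 probe set, of low signal and left out by the filter, ran the other way. Its signals were 14.8, 8.38 and 11.8 in knockouts 1 to 3, against 66.2, 35.8 and 49.6 in wild types 1 to 3. The direction for Ece2 thus rests on the tested probe set alone. Ece1, the better-known relative of Ece2, had 1093 ± 59.2 in knockouts and 1030.3 ± 99.2 in wild types. Npepps and Erap1, intracellular aminopeptidases of the family of Enpep and Anpep, differed by −0.087 and −0.035 on the log2 scale. Kel was highest on knockout replicate 1 at 796 and wild type replicate 2 at 416, the 2 arrays with the most liver signal.

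Ace was set beside the endothelium that carries it. Of 14 endothelial markers 11 were lower and 3 higher in knockouts, with a median log2 difference of −0.36 and 0 past the adjusted threshold of limma (9 had an unadjusted p under 0.05, all lower). Over all tested probe sets 13.6% had such a p in either direction. At 9 of the 14 all knockouts lay below all wild types, beside 9.36% of all tested. Sums ran from 28259 to 31232 in knockouts and from 35515 to 38698 in wild types and did not overlap. The difference of Ace at 1427034_at, −1.30, was lower than that of 13 of the 14, and that at 1451911_a_at, −0.38, lay near their median. The exception was the capillary carbonic anhydrase Car4, at 252, 197 and 106 in knockouts, against 850.1, 778 and 598 in wild types, a log2 difference of −2.08 (SE 0.30, limma adjusted p = 0.0852). Pecam1 differed by −0.48 and Cdh5 by −0.36. The 3 higher markers were Tek at 0.24, Egfl7 at 0.046 and Robo4 at 0.0073. The part of endothelial content in the Ace difference was not tested.

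Enpep was set beside pericytes and Anpep beside fibroblasts and macrophages. Of 10 pericyte markers 4 were higher and 6 lower, with a median log2 difference of −0.043, and their sums of 17090 to 19415 in knockouts and 18736 to 19827 in wild types overlapped. Pdgfrb, on that list, was at 2835, 2245 and 2583 in knockouts, against 2349, 2381 and 2444 in wild types. Kcnj8 and Gucy1b1 differed by −0.43 and −0.24, with all knockouts below all wild types, as at 9.36% of all tested probe sets. Rgs5 differed by 0.36, with all knockouts above, as at 10.7%. The part of pericytes in the Enpep difference was not tested. Of 11 fibroblast markers 6 were higher and 5 lower, with sums of 81277 to 82389 in knockouts inside the wild-type range of 75383 to 90026, a sum that rests mostly on bright genes such as Tcf21 and Mfap4. The mean log2 deviation of the 11 from the wild-type mean, which weights genes equally, was 0.25 to 0.49 in knockouts. It was −0.19 to 0.12 in wild types and did not overlap. Lum and Dcn contribute most to it, with log2 differences of 2.42 and 1.39. The differences of the other fibroblast markers ran from −0.27 to 0.54. The matrix genes Lum at 5.36-fold, Dcn at 2.62-fold and Col1a1 at 1.46-fold had the highest ratios of knockout to wild type, with limma adjusted p of 0.130, 0.168 and 0.215. Their part in the Anpep difference was not tested. Of 8 macrophage markers 5 were higher and 3 lower, with a median of 0.17, and sums of 7152 to 8699 in knockouts and 6448 to 7938 in wild types. Their mean log2 deviation had the other sign on 2 knockouts, at 0.22, −0.26 and −0.52 in knockouts 1 to 3. In wild types 1 to 3 it was −0.0027, 0.18 and −0.18. The sign on knockout replicates 2 and 3 rests on Marco, at 9.25 and 7.08 there, against 117 to 228 in wild types. The log2 difference of Marco, −2.96, was the lowest of the 8, and Cd68 and Adgre1 were the others below 0. C1qa, C1qb and Fcgr1 differed by 0.50, 0.53 and 0.48. At these 3 all knockouts lay above all wild types, as at 10.7% of all tested probe sets. The part of macrophages in the Anpep difference was not tested. All 10 alveolar type I markers had lower means in knockouts (median log2 difference −0.68), and their sums were lowest on knockout replicate 3. Every probe set of Ace, Enpep, Agt, Agtr1a and Mme was also lowest on that array, the one with muscle and cartilage transcripts. All 7 markers of neutrophils, which also carry Anpep and Mme, had higher fitted levels in knockouts (median log2 difference 0.91), with overlapping sums of 12015 to 48128 in knockouts and 6589 to 20855 in wild types. Both that sum and Anpep were highest on knockout replicate 1, but the other arrays did not keep that order. Wild type replicate 2 had the next highest sum, 20855, with Anpep at 136, below every knockout. Knockout replicate 2 had a sum of 12015 with Anpep at 184. The part of neutrophils in the Anpep signal was not tested. No marker of these 5 lists passed the adjusted threshold of limma.

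**Figure D4:**
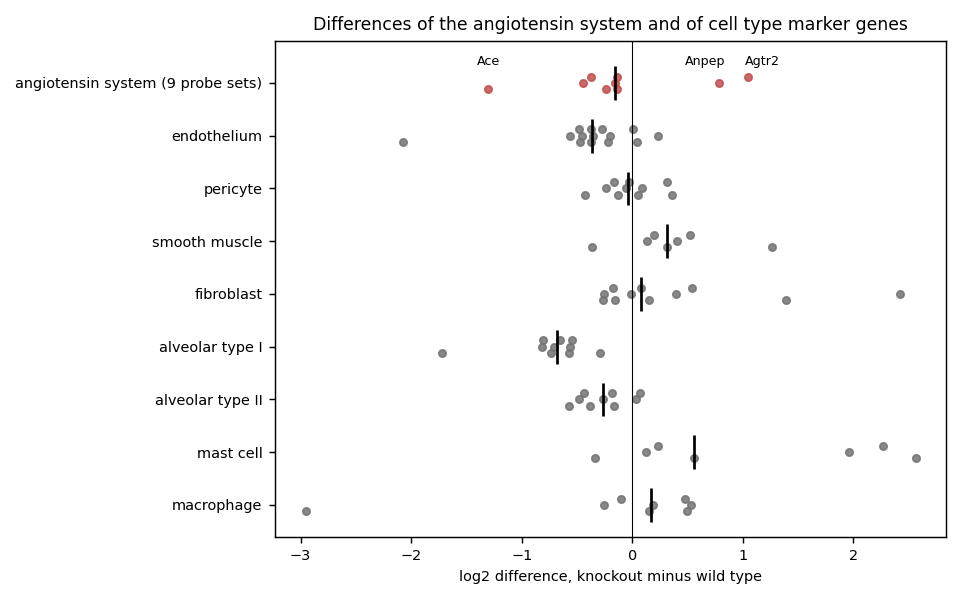
Log2 difference, knockout minus wild type, of the 9 angiotensin system probe sets (red, top row) and of the marker genes of 8 cell types (grey), with 1 point per probe set or gene and a black line at each median. The medians are −0.16 for the angiotensin system, −0.36 for endothelium, −0.043 for pericytes and −0.68 for alveolar type I cells.

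Across the 6 arrays the genes fell into no single pattern. The log2 values of Enpep followed those of Ace, with a Pearson r of 0.857 at 1427034_at and 0.839 at 1451911_a_at, whereas Anpep ran against Ace at 1427034_at (r = −0.908). Agtr2 ran against Enpep (r = −0.835). These are descriptions over 6 arrays that hold both genotypes, and knockout replicate 3 weighs on those of Agtr2. The groups lay apart at Ace, Enpep and Anpep, and the genes were chosen with that contrast in view. The gap between genotypes by itself makes the r of Ace with Enpep positive and that of Ace with Anpep negative. The r values of Ace therefore cannot show whether these genes vary together within a genotype. For each gene the 2 tested genes with the closest log2 pattern over the 6 arrays were also listed, at its brightest tested probe set. They were Vps37a (r = 0.998) and the fatty acid receptor Cd36 (r = 0.996) for Enpep, Lpl, which encodes lipoprotein lipase (r = 0.982), and Fnip2 (r = 0.982) for Agt, and Ddx18 (r = 0.996) and Acadsb (r = 0.995) for Ace. For the other 4 they were Tle4 and Tapt1 for Agtr1a, Miga2 and Zfp408 for Agtr2, Ankrd13a and Cnot3 for Mme, and Pabpc4 and Pltp for Anpep, with r from 0.986 to 0.997. Cd36 was at 3463, 3588 and 2729 in knockouts, against 4453, 3879 and 4252 in wild types, the order of arrays seen for Enpep. Each listed r is the highest or next highest among all tested genes over only 6 arrays, so high values are built into the choice. Ddx18 also lay near the filter, at 46.2 to 100.

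Sex was the 1 property of the samples that the choice of genes did not use. In a limma fit with genotype and sex, 2 male against 4 female arrays, 3 of 27022 probe sets passed the adjusted threshold for sex, or 0.0111%, and 0 belonged to the 7 genes. Their adjusted p was 0.999 throughout. The X-linked Agtr2 had a male minus female log2 difference of −0.63 (SE 0.88, 95% interval −2.66 to 1.40), and the narrowest interval, that of Mme at 1455961_at, ran from −0.083 to 0.42.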

How the data were processed

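The authors deposited 1 linear intensity per probe set and array, and the submitters' processing notes name MAS5. Its version, background settings and detection calls are not given in the sources used here. Every array had the same trimmed mean of 500 (2% cut from either tail), and the lowest value was 0.0757, so log2 was taken with no offset and no further scaling. Depth has no meaning on arrays, and their number limits the precision.

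Symbols came from the platform annotation and were updated through the gene ID in RefSeq's table for GRCm38.p6 (34754 of 34958 single symbols found), and 932 probe sets with several symbols were not named. After 64 control probe sets, those above the 40th percentile of mean log2 signal (59.7) were tested with limma 3.58.1 in R 4.3.3 (lmFit, eBayes with intensity trend, two-sided, knockout minus wild type), with Benjamini-Hochberg adjustment at 0.05. The fit was tested on simulated data. Ratios and 95% intervals are from this fit, means and SDs from linear signals.

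The genes and lists were chosen with earlier results of these data known, and the skeletal muscle and cartilage lists after the values were seen. All probe sets of the 7 genes were described. Of the other lists, genes past the adjusted threshold were named, or else the 6 of smallest p for the pathway and for the peptidase relatives. Further genes named from them, and all marker genes named, were chosen after their values were seen. Lists used the brightest tested probe set per gene. Replicate numbers did not pair the arrays. Alternatives in scaling, filter, eBayes form, sex, bacterial RNA, replicate block and arrays left out were run.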

Additional observations from a re-analysis of the deposited data

How the results depend on the processing

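The 8 probe sets past the adjusted threshold became 0 without an intensity trend, 40 with robust eBayes, 4 with sex as a term, 2 with bacterial control RNA as a term, 3 on the arrays without that RNA, and 58 without the 2 arrays of highest liver signal, an alternative added after seeing the data. They ran from 0 to 13 when each array was left out in turn. The replicate numbers shared by both genotypes did not pair the arrays (correlations of same-numbered deviations −0.14, −0.38 and −0.0056), and with the replicate block the count was 0. The count of other pathway genes past the threshold, 0, became 1 with median centring and 2 without the 2 liver arrays, and ran from 0 to 2 with each array left out. The median difference of the 9 angiotensin system probe sets was −0.27 with bacterial RNA as a term and on the arrays without it, where 1 wild type remained whose spread is assumed to be that of the knockouts, and −0.28 without the 2 liver arrays. It was −0.071 without knockout replicate 3, the smallest with 1 array left out. The count of probe sets with groups apart was 5 to 7, while the share over all tested ran from 16.1% with no filter to 56.1% on the arrays without bacterial RNA and 42.4% without the 2 liver arrays. Leaving arrays out cannot lower that count. Both Ace probe sets, Enpep, Agtr1a, Anpep and Mme at 1455961_at kept their sign in each alternative, which leaving out arrays could not have turned where the groups lay apart. Signs changed for Agt (0.095) and Agtr2 (−0.030) without knockout replicate 3, where leaving out knockout replicate 1 gave −0.73 and 1.92, and for Mme at 1422975_at with bacterial RNA as a term or on the arrays without it (0.11), without knockout replicate 3 (0.018) and without wild type replicate 3 (0.018). Among genes not called, Kel became −0.56 with bacterial RNA as a term or without those arrays, Npepps 0.0038 on omission of knockout replicate 2 and 0.055 on omission of wild type replicate 2 (lowest −0.19 with 1 array left out), and Erap1 0.026 with bacterial RNA as a term or without those arrays, 0.16 on omission of knockout replicate 3 and 0.023 on omission of wild type replicate 3 (lowest −0.25 with 1 array left out). The causes were not tested beyond the arrays left out. The signal of Agtr1b and of Mas1 lay too near or below the filter to resolve a difference.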

Other observations

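The mast cell protease gene Mcpt4, on the pathway list as a chymase, was left out by the filter, which uses the mean over all arrays. Its signals were 115, 694 and 408 in knockouts 1 to 3, against 5.93, 4.22 and 29.2 in wild types 1 to 3, so all knockouts lay above all wild types, in the order of knockouts seen for Cma1 and Cpa3. The kinin precursor gene Kng1, a liver product, had signals of 1756, 43.3 and 53.5 in knockouts, against 31.9, 681 and 25.8 in wild types, high on the 2 arrays on which Agt was also high.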
